A study of Homo sapiens with 6 samples.

Results

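The genes described here are the zinc finger genes of human chromosome 19, taken as the protein-coding genes there whose symbol is ZNF followed by a number and nothing else. The rule gave 240 genes of 1451 protein-coding genes on the chromosome and of 20033 in the whole gene table. Of the 240 genes, 83 lie on the p arm (below 26 Mb), 33 on the proximal q arm (32 to 43 Mb), 123 on the distal q arm (above 43 Mb) and 1, ZNF536, between 26 and 32 Mb. A further 237 genes fit the same naming rule on other chromosomes, and 1211 genes made up the rest of chromosome 19. The 1211 include some KIR genes, LILRA3 and LOC records whose listed positions fall at the start of the p arm.

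Accessible chromatin was mapped by ATAC-seq, an assay in which the transposase Tn5 inserts sequencing adapters into unpacked DNA, in the ARP1 cell line, which comes from human multiple myeloma, a cancer of plasma cells. There were 3 libraries of ARP1 cells with KDM6A knocked out (KO) and 3 libraries of wild-type ARP1 cells (WT). KDM6A is a histone demethylase that takes the silencing mark off lysine 27 of H3, and the study asked how its loss bears on DNA accessibility. Neither the method of knockout nor the number of clones is given in the labels. The libraries are numbered as biological replicates with nothing on their cultures, so every p-value measures the spread between these 6 libraries.

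The lists held 33055, 37314 and 36055 peaks in the KO libraries and 54443, 54470 and 56048 peaks in the WT libraries, without the mitochondrial peak. The weakest peak that entered a list had a fold over background of 3.23 ± 0.119 in KO and 2.81 ± 0.103 in WT (SD, n = 3 each). Chromosome 19 held 4.17% ± 0.0557 of the KO peaks and 2.88% ± 0.19 of the WT peaks, which is 1479.7 ± 90.9 and 1585.7 ± 83.3 peaks. KDM6A itself had a peak at a gene end in every list, with folds of 11.4, 15.1 and 12.6 in KO and 8.76, 13.6 and 10.7 in WT, and a peak at a gene end does not check an edit elsewhere in the gene. Of 10 plasma cell markers, 7 were marked by a gene-end peak in every list. PRDM1 had one in 1 KO and 3 WT lists, SLAMF7 in 2 WT lists and JCHAIN in the 3 WT lists only. Of 5 B cell markers CIITA was open in all 6 lists and PAX5 in 2 KO and 3 WT lists, and of 3 T cell markers CD3E in all 6 and CD2 in 2 WT lists. Of 5 myeloid and epithelial markers only KRT8 had a gene-end peak, in 1 WT list.

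Most zinc finger genes of chromosome 19 encode KRAB zinc finger proteins, the largest family of human transcription factors. Their arrays of C2H2 zinc fingers bind DNA, often within retrotransposons, and the KRAB domain recruits TRIM28 (KAP1), which brings the methyltransferase SETDB1 and HP1 proteins and lays down methylation of lysine 9 of histone H3. The family grew by tandem duplication, so its members sit side by side in clusters. The bodies of these genes are themselves known to carry H3K9 methylation in many cell types, while their promoters often lie in CpG islands.

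A gene counted as open in a library where that list had a peak overlapping, by at least 1 bp, a window reaching 1 kb either side of either end of the gene. Promoter sequences of 5 members are printed to show what the peaks at these genes cover and what a closed member carries. ZNF333, ZNF146 and ZNF837 had the strongest gene-end peaks of the p arm, the proximal and the distal q arm, by mean percentile within the lists, ZNF792 was open in the 3 WT lists alone, and ZNF91 was open in no list. Each runs 5′ to 3′ along the gene's strand, covers 250 bases before and 50 bases after the listed start, and comes from RefSeq on GRCh38.p14. Capitals mark matches, on either strand, to 7 short motifs: GGGCGG (SP/KLF factors), CGGAAG (ETS factors), TGACG (CREB/ATF factors), GCATGCG (NRF1), ATGGCG (YY1), CCAAT (NF-Y) and TATAAA (the TATA box). Matches that touch run together in capitals, and matches of different motifs may overlap.
ZNF333: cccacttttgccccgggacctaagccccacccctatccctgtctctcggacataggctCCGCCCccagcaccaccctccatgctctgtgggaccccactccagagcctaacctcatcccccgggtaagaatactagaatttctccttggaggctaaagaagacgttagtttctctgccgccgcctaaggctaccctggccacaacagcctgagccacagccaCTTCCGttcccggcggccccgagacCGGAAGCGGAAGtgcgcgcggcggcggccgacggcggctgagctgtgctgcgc
ZNF146: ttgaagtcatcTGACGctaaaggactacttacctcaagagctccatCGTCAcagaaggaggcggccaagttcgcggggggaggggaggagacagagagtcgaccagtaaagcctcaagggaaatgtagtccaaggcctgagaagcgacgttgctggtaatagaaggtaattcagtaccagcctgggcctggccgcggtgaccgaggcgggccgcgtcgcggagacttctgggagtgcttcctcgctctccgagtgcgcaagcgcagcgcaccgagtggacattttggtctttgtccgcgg
ZNF837: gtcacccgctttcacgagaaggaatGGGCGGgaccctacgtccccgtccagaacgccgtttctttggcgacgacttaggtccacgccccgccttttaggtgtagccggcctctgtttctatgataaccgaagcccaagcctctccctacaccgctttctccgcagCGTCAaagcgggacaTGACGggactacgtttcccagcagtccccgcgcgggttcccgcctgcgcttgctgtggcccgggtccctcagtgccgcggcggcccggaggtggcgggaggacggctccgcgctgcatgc
ZNF792: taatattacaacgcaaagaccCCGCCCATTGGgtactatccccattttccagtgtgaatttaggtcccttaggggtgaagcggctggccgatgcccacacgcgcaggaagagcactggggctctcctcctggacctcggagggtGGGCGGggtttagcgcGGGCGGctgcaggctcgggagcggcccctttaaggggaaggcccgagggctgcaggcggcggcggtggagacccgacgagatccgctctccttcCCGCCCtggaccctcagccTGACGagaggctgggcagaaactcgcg
ZNF91: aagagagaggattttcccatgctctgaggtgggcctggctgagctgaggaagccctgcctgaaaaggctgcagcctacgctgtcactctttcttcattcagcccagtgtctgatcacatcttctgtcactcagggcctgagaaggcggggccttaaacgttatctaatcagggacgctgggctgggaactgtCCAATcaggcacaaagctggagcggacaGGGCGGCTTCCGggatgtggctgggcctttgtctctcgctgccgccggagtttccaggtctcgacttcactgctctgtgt

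The ZNF333 promoter (chr19:14689798-14690097, plus strand) held 22 CG dinucleotides, 3 matches to the ETS motif and 1 to the SP/KLF motif. The ZNF146 promoter (chr19:36214856-36215155, plus strand) held 24 CG dinucleotides and 2 matches to the CREB/ATF motif. The ZNF837 promoter (chr19:58380981-58381280, minus strand) had 33 CG dinucleotides, 1 match to the SP/KLF motif and 2 to the CREB/ATF motif. A peak covered each of these promoters in all 6 lists. At ZNF146 the peak summit lay outside the printed stretch in KO 3 (−371 bp from the start) and in WT (−284, −347 and −371 bp). The ZNF792 promoter (chr19:34964180-34964479, minus strand) carried 24 CG dinucleotides, 4 matches to the SP/KLF motif and 1 each to the CREB/ATF and NF-Y motifs, and was covered by a peak in no KO list and in all 3 WT lists. The ZNF91 promoter (chr19:23395422-23395721, minus strand) had 11 CG dinucleotides and 1 match each to the SP/KLF, ETS and NF-Y motifs, and no list had a peak over it. A match is a description of letters and does not show binding.

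Fewer of the chromosome 19 zinc finger genes were open than of their neighbours, in every library. The share of the 240 genes that were open was 39.2%, 41.2% and 42.1% in KO and 43.8%, 46.7% and 44.6% in WT. The other 1211 genes of the chromosome were open at 54.9%, 55.7% and 55.4% in KO and at 56.1%, 57.7% and 56.2% in WT. Within a library the zinc finger genes differed from the other genes by −13 ± 1.77 percentage points (SD, n = 6), with differences between −15.7 and −11.1 points, so they were lower in 6 of 6 libraries. A two-sided exact sign-flip permutation test over the 6 libraries gave p = 0.031, the smallest it can give. The size of this difference depended on the window. It was −9.52 points when the peak summit had to lie in the window, and −5.77 points when only listed starts were counted, over the 210 members and 975 other genes that have one (exact sign-flip p = 0.031 each). At listed starts 45.7%, 49.5% and 50% of members were open in KO and 52.4%, 55.2% and 51.9% in WT, against 55.4%, 56.4% and 56.6% of the other genes in KO and 56.3%, 58.5% and 56.2% in WT. Wilson intervals at 95%, which cover counting error only, ran from 33.2% to 45.5% for the zinc finger genes in KO 1 and from 40.5% to 53.0% in WT 2.

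Zinc finger genes elsewhere in the genome were open far more often. The 237 ZNF genes of other chromosomes were open at 70.0%, 72.6% and 70.9% in KO and at 75.5%, 76.8% and 76.4% in WT. The chromosome 19 members differed from them by −30.8 ± 1.15 percentage points (SD, n = 6; exact sign-flip p = 0.031), with a gap of −30.3 ± 1.34 points in KO and −31.2 ± 0.956 points in WT. That gap did not separate the genotypes, with a difference of 0.897 points (two-sided exact permutation test, p = 0.5).

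**Figure D1:**
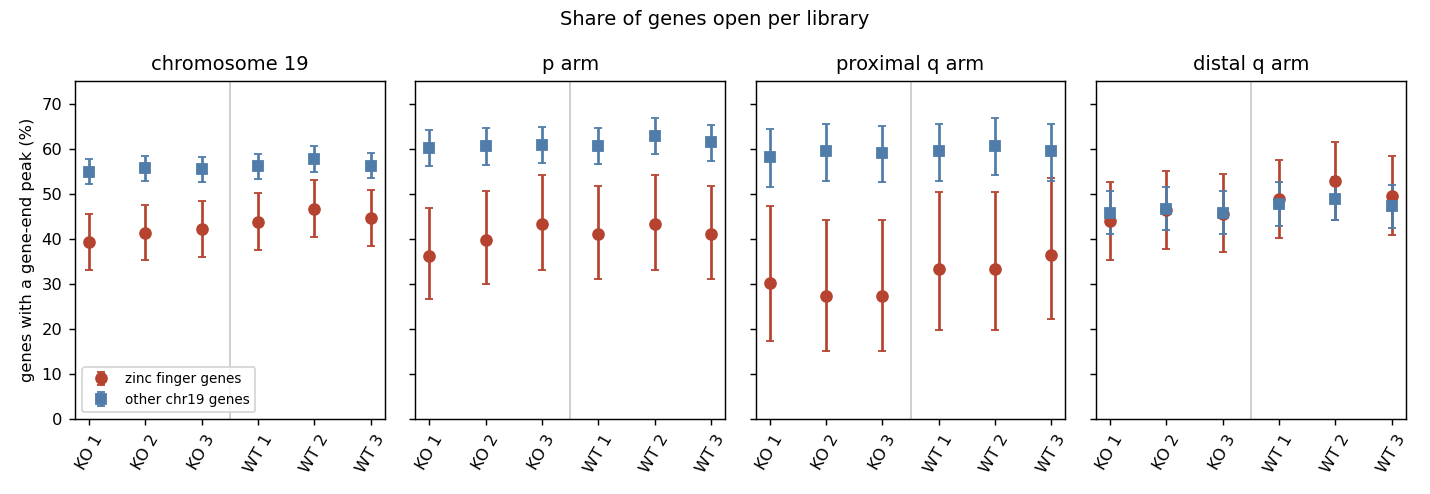
Share of genes with a gene-end peak (y axis, percent) in each library (x axis, KO left of WT), for zinc finger genes (circles) and other chromosome 19 genes (squares), on the whole chromosome and in 3 clusters; bars are 95% Wilson intervals. The zinc finger genes lie below the other genes on the chromosome as a whole, on the p arm and on the proximal q arm, and close to them on the distal q arm.

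Between genotypes, 40.8% ± 1.5 of the zinc finger genes were open in KO and 45.0% ± 1.5 in WT (SD, n = 3 each), a difference of −4.17 percentage points. The groups did not overlap, and the two-sided exact permutation test over the 20 labellings gave p = 0.1, the smallest that 3 against 3 libraries allow. The same difference was −1.35 points in the other chromosome 19 genes (55.3% ± 0.378 in KO, 56.7% ± 0.91 in WT; exact permutation p = 0.1) and −5.06 points in the ZNF genes of other chromosomes (71.2% ± 1.29 in KO, 76.2% ± 0.645 in WT; exact permutation p = 0.1). Over all protein-coding genes it was −3.29 points. The shorter KO lists moved with this difference. With only the 33055 strongest peaks kept in each list, the zinc finger genes were open at 39.2%, 40.4% and 41.2% in KO and at 37.9%, 38.8% and 38.3% in WT, so the direction turned, to 1.94 points (exact permutation p = 0.1). In bulk cells, a weaker signal in every cell and a signal in fewer cells cannot be told apart.

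Over the whole chromosome, the distance between the zinc finger genes and their neighbours was wider in KO. It was −14.5 ± 1.21 percentage points in KO and −11.7 ± 0.633 points in WT, a difference of −2.82 points (two-sided exact permutation test, p = 0.1). With lists of equal length the difference was −2.93 points (exact permutation p = 0.1). By cluster, with full lists, it was −0.887 points on the p arm (exact permutation p = 0.7). On the proximal q arm it was −5.04 points and on the distal q arm −3.27 points (exact permutation p = 0.1 each). A count of peaks in place of genes gave 100.7 ± 3.21 peaks at zinc finger gene ends per KO list and 109.3 ± 3.21 per WT list, so KO had 92.1% of the WT number (exact permutation p = 0.1). At the ends of the other chromosome 19 genes the numbers were 608.7 ± 13.5 in KO and 621.0 ± 19.3 in WT, or 98.0% (exact permutation p = 0.5).

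Gene by gene, the state of most zinc finger genes was the same in all libraries. Of the 240 genes, 86 were open in all 6 lists (35.8%), 123 in none (51.2%) and 31 in some. Among the other chromosome 19 genes 51.9% were open in all 6 lists, among all protein-coding genes 54.7%, and among ZNF genes of other chromosomes 68.4% (162 of 237). Of the 31 genes open in part of the lists, 25 were open in more WT than KO lists, 4 in more KO than WT lists and 2 in equal numbers. That is 80.6% with more WT lists, against 56.6% of such genes among the rest of chromosome 19 and 74.8% among all protein-coding genes. Among ZNF genes of other chromosomes the share was higher, at 87.5% (21 of 24).

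Only 1 zinc finger gene of the 102 open in all 3 WT lists was open in no KO list (0.98%), against 0.761% of the other chromosome 19 genes and 1.75% of all protein-coding genes. For ZNF genes of other chromosomes this share was 2.87%. None of the 86 members open in all 3 KO lists was open in no WT list. That background was 0.0% on the rest of chromosome 19 and 0.0453% over all genes. The single gene was ZNF792 on the proximal q arm (chr19:34956354-34964229, minus strand). It had no peak in KO and folds of 3.63, 5.59 and 4.19 in WT, at percentiles 13, 38.0 and 23.7 of the WT lists. The weakest folds that entered the KO lists were 3.31, 3.28 and 3.09. ZNF792 was no longer counted when the lists had equal length, or when a fold of at least 4 was required.

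Where the 31 genes open in part of the lists had a peak, its median percentile of strength within the list was 15.4, 31.8 and 37.6 in KO and 44.2, 36.6 and 41.4 in WT. The highest percentiles among them were 75.2 for ZNF358 in KO 3 (fold 10.4), 69.8 for ZNF235 in WT 2 and 65.7 for ZNF302, open at a gene end in WT 3 alone (fold 8.59). The gene-end peaks of ZNF358, in 3 lists, lay at its far end and not at its 5′ end. At its listed start, inside the gene record, ZNF302 was open in all 6 lists. Among the 11 genes open in 2 KO lists and all 3 WT lists, ZNF235 had folds of 5.72 and 7.87 in KO 1 and KO 2 and of 7.47, 10.5 and 8.59 in WT. ZNF304 had folds of 6.23 and 5.05 in KO 2 and KO 3 and of 7.26, 9.24 and 5.24 in WT. In the 4 genes open in 1 KO list and all 3 WT lists the pattern ran through 3 different KO libraries: ZNF546 was open in KO 1 (fold 4.51; WT folds 5.55, 5.59 and 4.82), ZNF233 in KO 2 (7.87; WT 7.26, 8.75 and 5.45), and ZNF222 and ZNF583 in KO 3. In ZNF222 the folds were 4.49 in KO 3 and 5.98, 6.81 and 6.5 in WT. In ZNF583 they were 4.21 in KO 3 and 4.06, 5.1 and 4.82 in WT.

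A few genes went the other way. ZNF440 and ZNF570 were open in KO 3 alone, with folds of 4.21 and 3.65, and ZNF221 in KO 1 alone, with a fold of 4.21. ZNF761 was open in 2 KO lists (4.21 and 3.61) and 1 WT list (5.1). ZNF160 was open in every list, with folds of 7.82, 8.85 and 5.89 in KO and 4.27, 4.13 and 4.4 in WT, and ZNF611 likewise with 4.51, 4.59 and 3.93 in KO and 3.2, 3.65 and 3.77 in WT. Both pairs of groups do not overlap, and with lists of equal length both genes were open in the 3 KO lists alone. That was 2 of the 86 members open in all 3 shortened KO lists (2.33%), against 3.0% on the rest of chromosome 19 and 0.914% over all genes. The fold is the authors' value within each list, so these values stand side by side and no change is read between lists. Of the 86 members open in all 6 lists, 5 had all KO folds above the WT folds (5.81%) and 13 had all below (15.1%). On the rest of chromosome 19 these shares were 12.3% and 2.87%, and over all protein-coding genes 2.93% and 36.8%. Among ZNF genes of other chromosomes they were 0.617% and 43.8%.

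On the p arm the share of open zinc finger genes was 36.1%, 39.8% and 43.4% in KO and 41.0%, 43.4% and 41.0% in WT, against 60.5% ± 0.354 of the other p arm genes in KO and 61.7% ± 1.08 in WT. The other p arm genes include the KIR, LILRA3 and LOC records listed there, although KIR and LILR are families of the distal q arm. Most of these records were open in no list, and their placement was not corrected. How far they moved the gaps on the p arm and the whole chromosome was not tested. On the proximal q arm it was 30.3%, 27.3% and 27.3% in KO and 33.3%, 33.3% and 36.4% in WT, against 58.8% ± 0.667 and 59.8% ± 0.756 of the other genes there in KO and in WT. On the distal q arm it was 43.9%, 46.3% and 45.5% in KO and 48.8%, 52.8% and 49.6% in WT, against 46.0% ± 0.565 and 47.9% ± 0.882.

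The gap was −20.3 ± 2.14 percentage points on the p arm and −28.0 ± 3.45 points on the proximal q arm (n = 6; exact sign-flip p = 0.031 each, 0.0469 after Benjamini-Hochberg adjustment over the 3 clusters). On the distal q arm it was 0.847 ± 2.08 points, with values between −1.82 and 3.95 (exact sign-flip p = 0.375, adjusted 0.375). That last value depends on the genes it is set against. The distal q arm also holds tandem families such as KLK, PSG, CEACAM, LILR, KIR and SIGLEC. Outside 131 genes of such families, a comparison chosen after the values were seen, the gap on the distal q arm was −7.59 ± 2.25 points (exact sign-flip p = 0.031), and it was −24.4 points on the p arm and −34.1 points on the proximal q arm. When only listed gene starts were counted, the gap was −17.1 points on the p arm, −9.0 on the proximal q arm and 8.97 on the distal q arm (exact sign-flip p = 0.031 each), so the order of the p arm and the proximal q arm turned. There 45.7% ± 3.95 of p arm members were open in KO and 47.5% ± 2.09 in WT. On the proximal q arm it was 47.3% ± 1.86 in KO and 51.6% in each WT library, and on the distal q arm 51.1% ± 2.2 in KO and 58.1% ± 2.52 in WT.

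Between genotypes, the p arm shares overlapped (39.8% ± 3.61 in KO, 41.8% ± 1.39 in WT; exact permutation p = 0.5). On the proximal q arm they did not, at 28.3% ± 1.75 in KO and 34.3% ± 1.75 in WT (exact permutation p = 0.1). Nor did they on the distal q arm, at 45.3% ± 1.24 in KO and 50.4% ± 2.15 in WT (exact permutation p = 0.1). With 3 against 3 libraries no cluster can pass a threshold of 0.05.

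Along the chromosome, 58 of the 123 closed members lay in unbroken runs of at least 5 genes. There were 8 such runs in the order of the zinc finger genes, and none of the 58 had a peak anywhere in the gene or within 1 kb of it in any list. Of all members 51.2% were closed and 35.8% were open in all 6 lists. How many closed or open runs another order of the genes would give was not tested. The longest closed run held 13 genes, ZNF43 to ZNF91 (chr19:21804946-23395471), with no other protein-coding gene among them. It includes ZNF91, known to silence SVA retrotransposons. The 8 genes of ZNF506 to ZNF626 (chr19:19792711-20661571) include ZNF93, known to silence LINE-1 elements.

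Further closed runs of the p arm and the proximal q arm were the 6 genes of ZNF763 to ZNF625 (chr19:11965040-12156734) and the 5 genes of ZNF790 to ZNF420 (chr19:36817428-37130368). On the distal q arm they were the 6 genes of ZNF577 to ZNF614 (chr19:51804442-52028379), with ZNF350, a protein that binds BRCA1, and ZNF649. Next along came the 8 genes of ZNF610 to ZNF83 (chr19:52330221-52690496), with ZNF808, which binds MER11 elements, and the 6 genes of ZNF600 to ZNF816 (chr19:52764164-52962881). The last were the 6 genes of ZNF667 to ZNF264 (chr19:56439329-57222846), where the 9 other protein-coding genes, the imprinted PEG3 and ZIM2 among them, were also open in no list. Genes of a tandem cluster are related copies of each other. How reads that map to several places were handled is not given in the sources used here, and its part in the closed runs was not tested.

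Open members formed 3 runs of at least 5 genes, with 22 genes. These were the 8 genes of ZNF628 to ZNF787 (chr19:55476617-56121295), the 6 genes of ZNF274 to ZNF584 (chr19:58183061-58418327), ZNF544 among them, and 8 genes of the p arm from ZNF443 to ZNF14. The p arm run is spread among 203 other protein-coding genes, of which 125 were open in all 6 lists. Within the p arm the members below 20 Mb and above it differed: 25 of 52 below (48.1%) and 5 of 31 above (16.1%) were open in all 6 lists, a split chosen after the values were seen. Above 20 Mb there were only 2 other protein-coding genes, both open in no list.

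**Figure D2:**
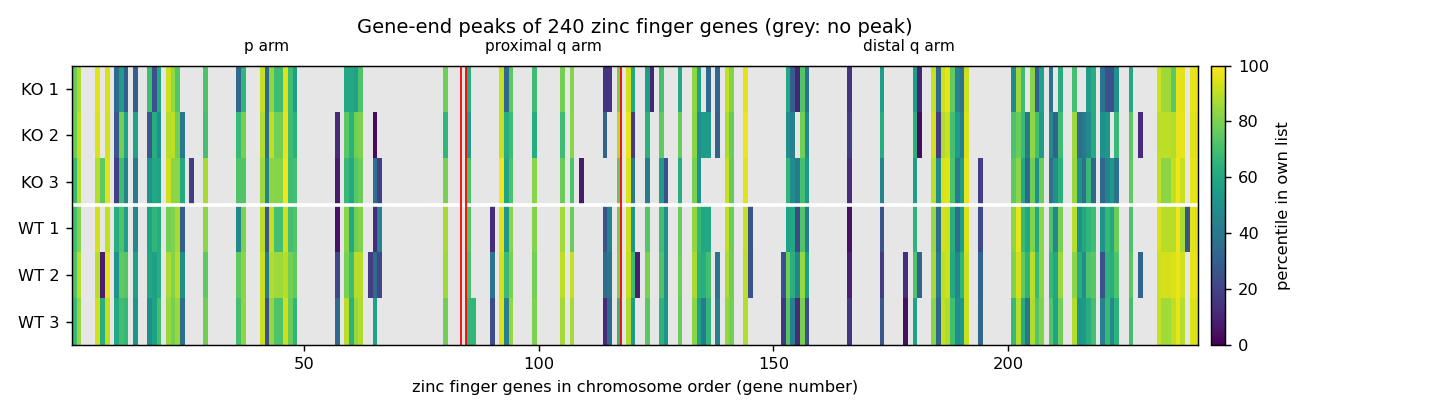
Each of the 240 zinc finger genes in chromosome order (x axis, gene number) and each library (rows, KO above WT), coloured by the percentile of its strongest gene-end peak within that library's list, with grey for no peak; red lines part the clusters. Grey columns run through all 6 rows in stretches of up to 13 genes, and the colours of a gene are mostly alike in KO and WT.

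The peaks lay at gene starts. Of the 79 genes open in all 6 lists whose strand is known, 78 were open at the 5′ gene end in all 6 lists. At the far end 72 had no peak in any list and 6 had one in all 6. For some of the 79, ZNF584 and ZNF227 among them, the listed start lies inside the gene. Among members with a peak within 1 kb of a listed start, 96 to 116 per library, summits fell a median of 57 to 89 bp from it. Depending on the library, 88.5% to 95.2% of them lay within 250 bp. Peaks away from listed starts do not enter these values.

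A count at gene ends misses starts inside the gene record. Of the 123 genes closed at both ends, 108 had no peak anywhere in the gene or within 1 kb in any list, and 15 had one. A listed start was known for 102 of the 123, and 10 were open at it in all 6 lists. ZNF574 had folds there of 23.5, 31.1 and 23.6 in KO and 21.8, 26.7 and 20.7 in WT. ZNF444, a SCAN-domain zinc finger protein, had 24.7, 24.6 and 21.0 in KO and 19.4, 28.0 and 21.4 in WT. These folds reached those of the strongest gene-end peaks of the family, and ZNF574 ranked at percentiles 96.2, 98.2 and 96.8 in KO and 94.7, 94.8 and 93.8 in WT. ZNF799 had 15.3, 15.1 and 18.5 in KO and 19, 22.4 and 16.6 in WT, and ZNF565 was open through the peak it shares with ZNF146. The rest of the 10 were ZNF567, ZNF875, ZNF575, ZNF225, ZNF749 and ZNF329.

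ZNF550 was open at its inner start in the WT lists alone, with folds of 5.34, 7.53 and 6.08 at percentiles 41.8, 55.0 and 48.0, and had no peak in KO. It joins ZNF792 when starts are counted instead of ends. The imprinted gene ZNF331, with 6 listed starts, had a single peak, in KO 3, with a fold of 3.65.

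Where zinc finger genes were open, their peaks were weaker than those of their neighbours. Peak strength was read as the percentile of the −log10 p-value within the library's own list, where 100 is the strongest peak. The median percentile of the strongest gene-end peak was 67.5, 69.0 and 70.2 in KO and 71.9, 74.5 and 70.6 in WT for zinc finger genes. For other open genes of the chromosome it was 81.0, 83.7 and 81.1 in KO and 79.4, 80.0 and 77.6 in WT. The difference was −9.85 ± 3.75 percentile points (SD, n = 6), lower for the zinc finger genes in 6 of 6 libraries (exact sign-flip p = 0.031). Against the ZNF genes of other chromosomes it was −10.1 ± 1.38 points (exact sign-flip p = 0.031).

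The gap to the neighbours was −13.0 ± 1.96 percentile points in KO and −6.67 ± 1.05 in WT, a difference of −6.36 points (exact permutation p = 0.1). Against the ZNF genes of other chromosomes the order was the other way, with a gap of −9.28 ± 1.49 in KO and −10.8 ± 0.855 in WT (exact permutation p = 0.2). The median percentile of the members was 68.9 ± 1.34 in KO and 72.3 ± 1.98 in WT, while that of the other chromosome 19 genes was 81.9 ± 1.55 in KO and 79.0 ± 1.27 in WT; lists of unequal length do not show a change in rank. With lists of equal length the gaps were −13.5, −18.2 and −11.9 in KO and −6.56, −6.07 and −12 in WT, and the groups overlapped (difference −6.33, exact permutation p = 0.2). By cluster, with full lists, the mean gap was −5.59 points on the p arm, −9.53 on the proximal q arm and −16.1 on the distal q arm (exact sign-flip p = 0.031 each, adjusted over the 3 clusters 0.031). On the p arm it was −8.58 ± 0.695 in KO and −2.6 ± 0.736 in WT. It was −11.9 ± 4.02 and −7.21 ± 6.73 on the proximal q arm, and −20.9 ± 3.52 and −11.3 ± 1.55 on the distal q arm. Of the 3 clusters, the distal q arm had the smallest mean gap in the share of open genes and the widest mean gap in peak strength. In WT 3 the gap in strength was wider on the proximal q arm (−14.9) than on the distal q arm (−10.4).

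The authors' fold gave the same order. Its median at open zinc finger genes was 9.63, 10.2 and 9.26 in KO and 9.61, 11.9 and 9.64 in WT, and at the other open genes 12.9, 14.8 and 12.1 in KO and 11.7, 14.1 and 11.5 in WT. The ratio of both medians within a list was 0.734 ± 0.0404 in KO and 0.833 ± 0.0136 in WT. Against the ZNF genes of other chromosomes it was 0.81 ± 0.0315 in KO and 0.733 ± 0.00406 in WT, the other way round. Of the open zinc finger genes 19.1%, 16.2% and 16.8% had a peak among the strongest 10% of their list in KO and 15.2%, 17.0% and 11.2% in WT. For the other genes of the chromosome the shares were 33.7%, 37.2% and 30.8% in KO and 23.7%, 26.6% and 21.0% in WT. Peaks at zinc finger genes were also narrower, with a median width of 773 ± 33.2 bp in KO and 900.3 ± 35.6 bp in WT, against 1159.7 ± 85.7 bp and 1241.3 ± 10.7 bp at the other genes.

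**Figure D3:**
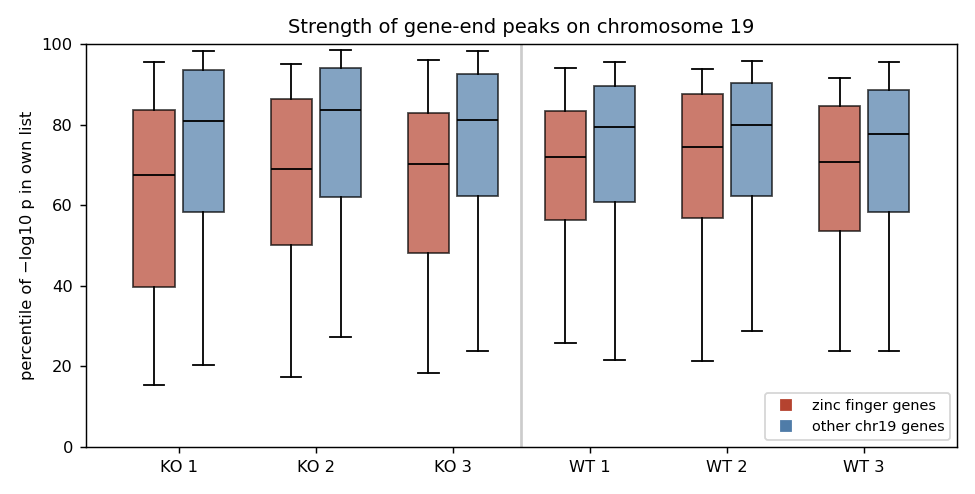
Percentile of the −log10 p-value of the strongest gene-end peak within its own list (y axis) for open zinc finger genes (red) and other open chromosome 19 genes (blue) in each library (x axis, KO left of WT); boxes are quartiles with the median, whiskers the central 90% of genes. The median of the zinc finger genes is the lower one in each of the 6 libraries, by 5.5 to 14.7 percentile points.

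The members with the strongest gene-end peaks were well above these medians in every library. On the p arm, ZNF333 had folds of 22.3, 27.5 and 26.1 in KO and 19.2, 19.7 and 19.7 in WT. Its KO values all lay above its WT values, with means of 25.3 ± 2.72 and 19.5 ± 0.273 (SD, n = 3 each). ZNF414 had folds of 20.2, 21.3 and 21.3 in KO and 17.5, 31.6 and 18 in WT. ZNF557 had 21.7, 23.3 and 15.2 in KO and 20.3, 20.2 and 19.9 in WT. In both of them the groups overlapped.

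By gene-end peaks on the proximal q arm, ZNF146 stood apart from the rest of its cluster. ZNF146 encodes a protein made almost wholly of zinc fingers, without a KRAB domain, and had folds of 17.8, 19.7 and 26.4 in KO and 23.1, 24.5 and 22.0 in WT. The next members, ZNF527 and ZNF383, had lower folds. ZNF527 had 13, 14.1 and 9.54 in KO and 11.1, 21.6 and 15.3 in WT. ZNF383 had 12.3, 10.2 and 10.9 in KO and 14.5, 20.9 and 15.1 in WT, and its groups did not overlap. ZNF574 of the same cluster, closed at its gene ends, had a peak of like strength at its listed start. Its percentiles there were 96.2, 98.2 and 96.8 in KO and 94.7, 94.8 and 93.8 in WT.

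On the distal q arm, the strongest members lay near the end of the chromosome. ZNF837 had folds of 22.9, 25.9 and 24.7 in KO and 27.8, 32.1 and 24.9 in WT, the highest of the family in each WT list. ZNF446, which joins a SCAN domain to its zinc fingers, had 24.4, 23.6 and 22.2 in KO and 23.1, 31.6 and 22.0 in WT. Its neighbour ZNF324 was assigned that same peak, which lies at the start of ZNF446 and within 1 kb of the far end of ZNF324. The peak at the start of ZNF324 itself was weaker, with folds of 12, 14.8 and 12.6 in KO and 12.8, 19.9 and 14.7 in WT. ZNF490 with ZNF791 and ZNF544 with ZNF8 also shared a peak in every list. The peak of ZNF8 lies at the start of that gene, with folds of 14.7, 18.4 and 12.6 in KO and 16.4, 24.8 and 14.9 in WT. At its own start ZNF544 had a peak only in KO 2 (fold 4.59) and in the 3 WT lists (4.06, 4.13 and 3.77), so it counts as open in all 6 lists through the start of ZNF8. So 3 peaks stood for 6 genes, and another 9 to 11 open members in each list shared their peak with a chromosome 19 gene that does not meet the naming rule. Such genes include the read-through records ZNF559-ZNF177 and ZNF765-ZNF761, with the same folds as ZNF559 and ZNF765.

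**Figure D4:**
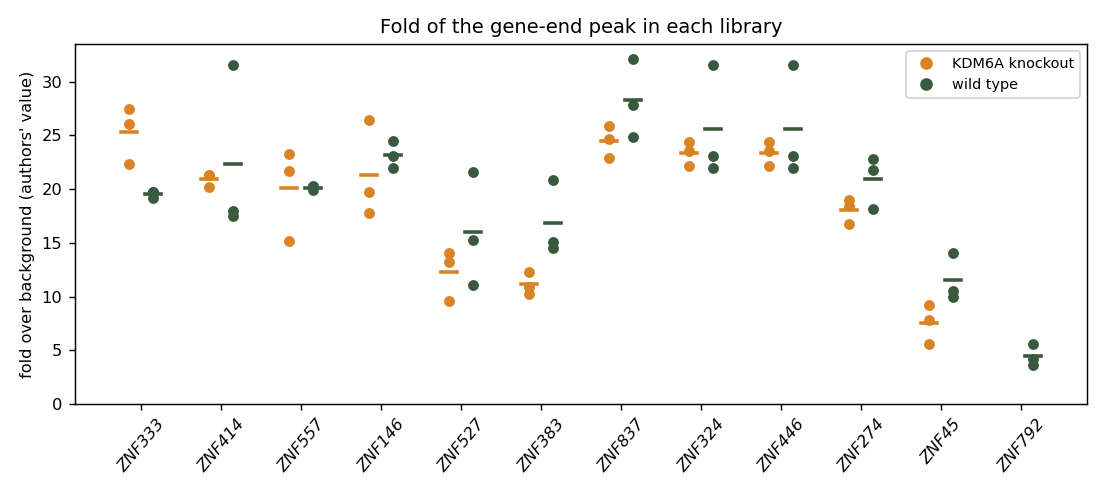
Fold over background of the strongest gene-end peak (y axis, the authors' value) of 12 zinc finger genes, with a dot for each library and a bar for the mean, KO (orange) left of WT (green). ZNF792 has no KO dots; ZNF324 and ZNF446 share their peak; the KO and WT dots do not overlap at ZNF333, ZNF383 and ZNF45.

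Of the members fixed by name, ZNF274 and ZNF45 were open in all 6 lists. ZNF274 is known to bind the coding ends of other zinc finger genes and to bring SETDB1 there. It had folds of 19, 18.4 and 16.8 in KO and 21.8, 22.8 and 18.2 in WT. ZNF45 had 7.82, 9.18 and 5.61 in KO and 10, 14.1 and 10.5 in WT, with means of 7.54 ± 1.8 and 11.5 ± 2.23, and the groups did not overlap. ZNF91, ZNF93, ZNF43, ZNF331, ZNF350, ZNF382, ZNF808, ZNF649 and ZNF536, a regulator of neuronal differentiation, were open at a gene end in no list.

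Promoters of closed zinc finger genes held somewhat fewer CG dinucleotides than those of open ones, and the difference was smaller than in the rest of the chromosome; neither was tested. A promoter sequence was found for 210 of the 240 genes. The 79 promoters of members open in all 6 lists held a median of 22 CG dinucleotides in 300 bases, with the middle 80% between 13 and 33.2. The 102 promoters of members open in none held a median of 18, with the middle 80% between 9 and 29.9. For other chromosome 19 genes the medians were 27 among 536 open in all 6 lists and 9 among 358 open in none. At least 10 CG dinucleotides were present in 98.7% of open and 87.3% of closed members, against 91.4% of open and 49.4% of closed genes in the rest of the chromosome.

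Of the 108 members with no peak anywhere in or near the gene 87 had a promoter sequence, with a median of 19 CG dinucleotides, and 87.4% had at least 10. The 44 promoters available within the 8 closed runs had a median of 19.5. Among ZNF genes of other chromosomes the medians were 26 for those open in all 6 lists and 16 for those open in none.

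**Figure D5:**
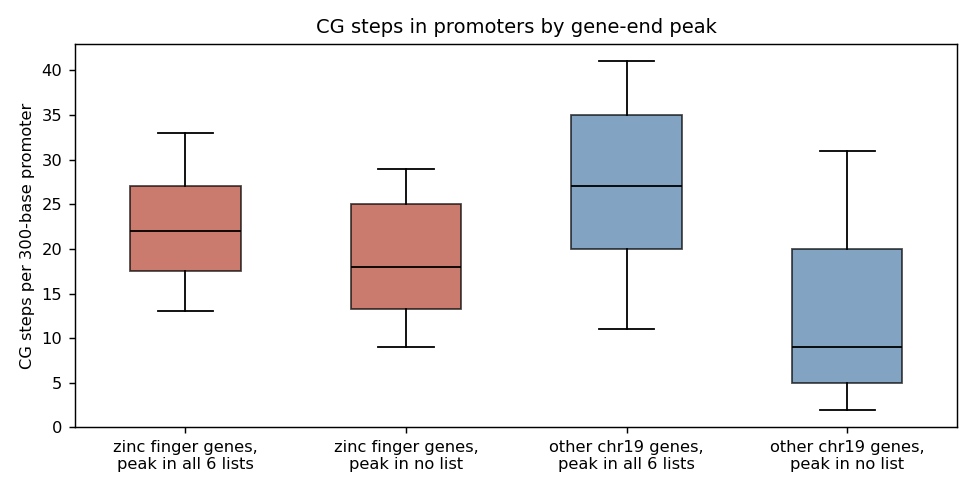
CG dinucleotides in the 300-base promoter (y axis) of zinc finger genes (red) and other chromosome 19 genes (blue), parted by gene-end peaks in all 6 lists or in none; boxes are quartiles with the median, whiskers the central 80% of genes. Closed zinc finger genes have a median of 18 and open ones 22, while closed and open genes of the rest of the chromosome have 9 and 27.

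Of the motifs searched on both strands, CGGAAG was in 58.1% of the members' promoters, against 24.6% of the other chromosome 19 promoters and 25.5% of all 15841 promoters. It was in 58.2% of members open in all 6 lists and in 55.9% of those open in none. Among ZNF genes of other chromosomes it was in 47.2% of promoters, 53.6% of those open in all 6 lists and 33.3% of those open in none, so a share above that of all promoters was not particular to chromosome 19. CCAAT was in 53.8% of the members, 37.7% of the other chromosome 19 promoters, 43.1% of the ZNF genes of other chromosomes and 36.5% of all. TATAAA was in 2.38%, 8.1% and 9.82%. GGGCGG was in 68.1% of the members, 65.3% of the other chromosome 19 promoters and 58.2% of all. TGACG (32.4%, 30.6% and 29.3%), GCATGCG (4.76%, 6.56% and 5.14%) and ATGGCG (18.1%, 15.8% and 14.3%) lay closer together in these sets. Members of tandem clusters share ancestry, so their promoters are not independent of each other.

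Of 22 genes chosen for the KRAB co-repressor pathway, 20 were open in all 6 lists, against 54.7% of all protein-coding genes. The choice also took in general factors such as DNMT1 and MBD2, and whether each gene is a partner of KRAB proteins was not checked. TRIM28, the co-repressor itself, lies on chromosome 19 (chr19:58544064-58550715) and had folds of 24.1, 27.2 and 21.3 in KO and 18.4, 22.6 and 19.7 in WT, and the groups overlapped. SETDB1 had 16.9, 17.4 and 11.8 in KO and 16.2, 25.5 and 17.4 in WT, and CBX5, the HP1 alpha protein, had 22.3, 22.0 and 18.8 in KO and 16.7, 17.0 and 18.2 in WT. CHD4, a remodeller of the NuRD complex, had 12.3, 11.5 and 9.82 in KO and 7.9, 7.05 and 6.08 in WT. SMARCAD1, a remodeller that binds TRIM28, had 8.43, 10.2 and 11.2 in KO and 16.9, 21.4 and 16.3 in WT. Of the 20 genes, 2 (CBX5 and CHD4) had all KO folds above the WT folds, and 3 (SMARCAD1, ATRX and TASOR) had all below. ATRX had 6.32, 6.23 and 5.05 in KO and 9.4, 8.02 and 7.96 in WT, and TASOR had 9.33, 9.83 and 8.98 in KO and 10.5, 10.7 and 10.9 in WT. These are 10% and 15% of the 20, against 2.93% and 36.8% of all genes open in every list. CHD3 was open in 1 KO and 2 WT lists, and UHRF1 in none.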

How the data were processed

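Each of the 6 ATAC-seq libraries has its own deposited list of narrow peaks, so peaks were called per library. The submitters' processing notes name Trimmomatic, FastQC, MultiQC, Bowtie2, MACS and MACS2 2.1.2, with the build GRCh38; of their settings, any Tn5 shift, duplicate removal and the handling of multi-mapped reads, nothing is stated in the sources used here. Per the labels, read pairs of 150 bp were sequenced. The deposited fold, a ratio over background, the −log10 p-value and −log10 q-value, and the score (10 times the −log10 q-value as a whole number) are the authors' values. The score was not analysed further. The number of reads per library was not analysed here; list length and the weakest fold stand for it.

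Gene ends, starts and promoters came from RefSeq tables of GRCh38.p14 for 20033 protein-coding genes; 210 of the 240 members had a listed start. Peaks were ranked by the −log10 p-value within a list, and a gene's strongest peak in its end windows was used. Tests were two-sided and exact: permutation over the 20 labellings (smallest p 0.1) or sign flips over 6 libraries (smallest p 0.031), with a threshold of 0.05. Counts of genes were set beside the same count over other genes, with no test. Python 3.11.15, numpy 2.4.6, pandas 2.3.3, scipy 1.17.1 and matplotlib 3.10.9 were used. The code was tested on the deposited lists after KO peaks at randomly picked genes had been removed.

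The genes named were KDM6A, TRIM28, members open in the lists of 1 genotype only, the 3 strongest members per cluster by mean percentile, and 11 fixed members (ZNF268, also on that list, does not meet the rule). Co-repressors other than TRIM28, and members open in part of the lists or only at inner starts, were named after their values were seen. The members and lists were chosen with earlier results of these data known. Alternatives were lists of equal length, a stricter −log10 q-value (5 or more), windows of 500 bp and 2 kb, listed starts only, the peak summit, a wider symbol rule, narrower comparison genes, no shared windows, leaving out each library and a replicate block. A fold of at least 4, a peak anywhere in the gene, and comparison genes outside tandem families were added after seeing the data.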

Additional observations from a re-analysis of the deposited data

How the results depend on the processing

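With lists of equal length the share of open zinc finger genes was 1.94 percentage points higher in KO, the direction reversed; under the other alternatives with all libraries it was lower in KO. The count open in the 3 WT lists only, 1 as reported, was 0 with equal lists and at a fold of at least 4, and 2 with windows of 2 kb, with listed starts and with a peak anywhere in the gene (ZNF792 and ZNF550 with 2 kb windows and with listed starts). Leaving out each library gave 1 to 3, the highest without KO 3 or WT 1. The count open in the KO lists only was 2 with equal lists (ZNF611 and ZNF160), 2.33% of those open in all 3 KO lists against 3.0% on the rest of the chromosome. The mean ratio of median folds, 0.783, was 0.748 with the wider symbol rule, 0.743 without shared windows and 0.816 with a peak anywhere in the gene. The gap in share to other chromosome 19 genes ran between −13.5 and −12.6 points, and the gap in percentile between −10.7 and −8.87, when each library was left out, and 5 libraries cannot give an exact sign-flip p below 0.0625. The gap in share was −5.77 with listed starts and −9.52 with the peak summit in the window. The gap in share on the distal q arm was −2.32 with 2 kb windows and −0.0888 with the wider rule. It was −0.922 when other zinc finger names, PEG3 and the VN1R genes were left out of the comparison. Without shared windows the gap was −2.03, with a peak anywhere in the gene −1.38, and outside tandem families −7.59. Other alternatives moved it upward, to 3.84 with windows of 500 bp, 4.58 with the peak summit in the window and 8.97 with listed starts. The cause was not tested. As a replicate block of same-numbered libraries, KO minus WT was −4.17 points for the share, −2.82 for its gap and −6.36 for the percentile gap, each with an exact p of 0.25, the smallest for 3 pairs; the correlations of same-numbered deviations were −0.0342, 0.0504 and −0.189 over 10950 genes, so the numbers were not taken to pair the libraries. With 3 libraries per genotype no difference between KO and WT could pass 0.05, and the longer WT lists held weaker peaks.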

Other observations

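On chromosome 19 a further 27 protein-coding genes carry other zinc finger names (ZFP, ZSCAN, ZIM, ZBTB, a letter after the ZNF number, or a read-through name). Of these, 8 were open in all 6 lists (29.6%), 18 in none, and ZNF780B in 1 KO and 3 WT lists. ZBTB7A, a BTB zinc finger repressor active in blood cells, had folds of 17.2, 20 and 10.9 in KO and 8.33, 12.4 and 9.64 in WT. ZBTB32, a BTB zinc finger repressor of the B lineage, had folds of 21.1, 24.6 and 22.4 in KO and 23.3, 26.7 and 20.5 in WT. ZFP14, ZFP82, ZFP30, ZIM2, ZIM3, ZSCAN4 and ZFP28 were open in no list.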
